A study of Mus musculus with 98 samples.

Results

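Hedgehog signalling was examined in the mouse thymic stroma through 8 genes: the receptor Ptch1, the ligand-binding antagonist Hhip, the co-receptors Cdon and Boc, the signal transducer Smo and the transcription factors Gli1, Gli2 and Gli3. The genes were taken by name, with earlier results of these data known. All 8 were found among the 39179 genes of the bulk RNA-seq table and among the 22231 and 20760 genes of the 2 single-cell tables. Hedgehog ligands are secreted proteins that bind Ptch1 and thereby release Smo, which in turn activates the Gli factors. Gli1, Ptch1 and Hhip are themselves transcribed in many responding cells and are widely read as targets of the pathway, while Hhip and Ptch1 hold ligand back, and Cdon and Boc present it to Ptch1. Gli2 is known mainly as an activator and Gli3 mainly as a repressor. In the thymus the pathway is known for its part in the patterning of the pharyngeal pouch and in thymocyte and epithelial cell development.

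The first single-cell data set held Ter119-CD45-EpCAM- stroma of wild-type C57BL/6 mice at embryonic days E12.5 and E13.5 (1 library each, from pooled thymi), at E16.5, at birth (P0) and at 4 weeks (W4; 2 libraries each), with 36208 cells that the authors assigned to 19 transcriptomic subtypes. The second held Ter119-CD45- stroma, thymic epithelial cells (TEC) included, of P0 mice, sorted and then fixed in RNAprotect, from 3 Tbx1+/- Crkl+/- mice (heterozygous for a LacZ insertion in Tbx1 and a null allele of Crkl) and 3 wild-type littermates, with 21451 cells. The third was ultra-low-input bulk RNA-seq of wild-type cells sorted from CD45- stroma, with 6 libraries in each of 14 groups: CD31 endothelium, Ly51gp38neg mural cells, gp38CD26pos capsular and gp38CD26neg medulla-enriched fibroblasts, cortical TEC (cTEC) and medullary TEC (mTEC) at P0 and 4 weeks, and mTEChi and mTEClo at 4 weeks. Of the 84 bulk libraries 1, a gp38CD26pos library at 4 weeks, held 25702 gene counts and none of any Hedgehog gene listed above, and was left out, so that this group had 5 libraries. The other 83 held 5785352 to 15852166 gene counts each. The libraries of the first single-cell set had medians of 10005 to 14031 UMIs (unique molecular identifiers, each a counted RNA molecule) per cell and those of the second 2391 to 4686. Cell barcodes that occurred in more than 1 library made up 0.43% of those of the first set and 0.206% of those of the second. No source used here says that the libraries of a group came from separate animals in the bulk data, so p-values there measure the spread between these libraries, which may be technical. The sort labels matched their markers: the median Pecam1 level was 2033 CPM (counts per 1000000 gene counts) in CD31 cells at P0 and at most 19.3 CPM in every group other than CD31, and Epcam lay between 271 and 769 CPM in the 6 TEC groups and at most at 2.46 CPM in the rest. The median of the mural marker Rgs5 was 32355 CPM in Ly51gp38neg cells at P0 and also reached 3209 CPM in mTEClo.

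Of the 8 genes, Ptch1 and Hhip are the targets whose levels were high together with Gli1 in one capsular subtype, and their promoters are shown as the sequence that pathway read-outs are usually traced to. These are the 250 bases upstream of the start site from RefSeq (build GRCm38.p6), 5′ to 3′ on the strand of the gene, in lower case with GC boxes (GGGCGG or its reverse CCGCCC) in capitals. The Ptch1 window is chr13:63565736-63565985 (minus strand), inside the annotated span of the gene, which has a longer transcript. The Hhip window is chr8:80058009-80058258 (minus strand).
Ptch1: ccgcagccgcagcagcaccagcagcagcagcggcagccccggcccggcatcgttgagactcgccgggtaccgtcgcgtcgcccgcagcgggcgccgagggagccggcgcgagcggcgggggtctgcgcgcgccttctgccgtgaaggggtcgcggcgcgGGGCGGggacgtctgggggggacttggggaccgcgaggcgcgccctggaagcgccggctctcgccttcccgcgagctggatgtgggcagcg
Hhip: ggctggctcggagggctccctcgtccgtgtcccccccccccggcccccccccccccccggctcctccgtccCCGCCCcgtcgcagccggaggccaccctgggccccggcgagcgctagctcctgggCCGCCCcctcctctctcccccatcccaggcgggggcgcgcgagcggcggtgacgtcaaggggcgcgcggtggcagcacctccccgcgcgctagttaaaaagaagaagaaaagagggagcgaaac
Bases G and C made up 78.4% of the Ptch1 window and 76% of the Hhip window, against a median of 52.4% over all promoters. The Ptch1 window held 1 GC box and the Hhip window 2. A GC box was in 10756 of 32851 promoter windows of this length (32.7%), so that its presence does not set the members apart. The 9-base GLI consensus GACCACCCA (reverse TGGGTGGTC; it overlaps neither form of the GC box) was in neither window, in 0 of the 6 members with a promoter in the table (Ptch1, Hhip, Cdon, Smo, Gli2 and Gli3) and in 74 of all 32851 windows (0.225%). This says only that these letters were not in these bases.

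Across the 19 subtypes of EpCAM-negative stroma the genes fell into different patterns. The capsular fibroblast subtype CapFb2a stood out for Gli1 and Hhip, and for Ptch1 among the fibroblasts, and was singled out after these values were seen. Mean Gli1 was 24.2 ± 17.7 CPM in CapFb2a (SD, n = 8 libraries) and 6.6 ± 5.5 CPM in CapFb2b, the next subtype. Mean Hhip was 32.57 ± 33.98 CPM in CapFb2a and 3.0 ± 3.9 CPM in CapFb2b. CapFb2a held 1125 of the 36208 cells (3.11%) and 3.70% of all UMIs, but 828 of the 1290 Hhip UMIs (64.2%), 527 of the 2128 Gli1 UMIs (24.8%) and 698 of the 5167 Ptch1 UMIs (13.51%), counted in libraries with at least 5 cells of a subtype. These are descriptions of a subtype drawn by clustering, with no test against the others. CapFb2a was a fibroblast by its markers, with means of 143.5 CPM for Pdgfra and 8503 CPM for Col1a1 against 0.609 CPM for Epcam and 4.20 CPM for Pecam1, and the summed level of 6 TEC markers there was between 1.24 and 15.1 CPM. Mural markers were also counted in it: their summed level averaged 1117 CPM in CapFb2a (184.002 to 1787 CPM over libraries), 120.5 to 179.7 CPM in the other 6 capsular subtypes, 6359 CPM in pericytes (Pc) and 15249 CPM in vascular smooth muscle (VSM). Hhip itself averaged 0.25 CPM in Pc and 0.962 CPM in VSM. The part of mural RNA in the Gli1 and Ptch1 levels of CapFb2a was not tested.

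**Figure D1:**
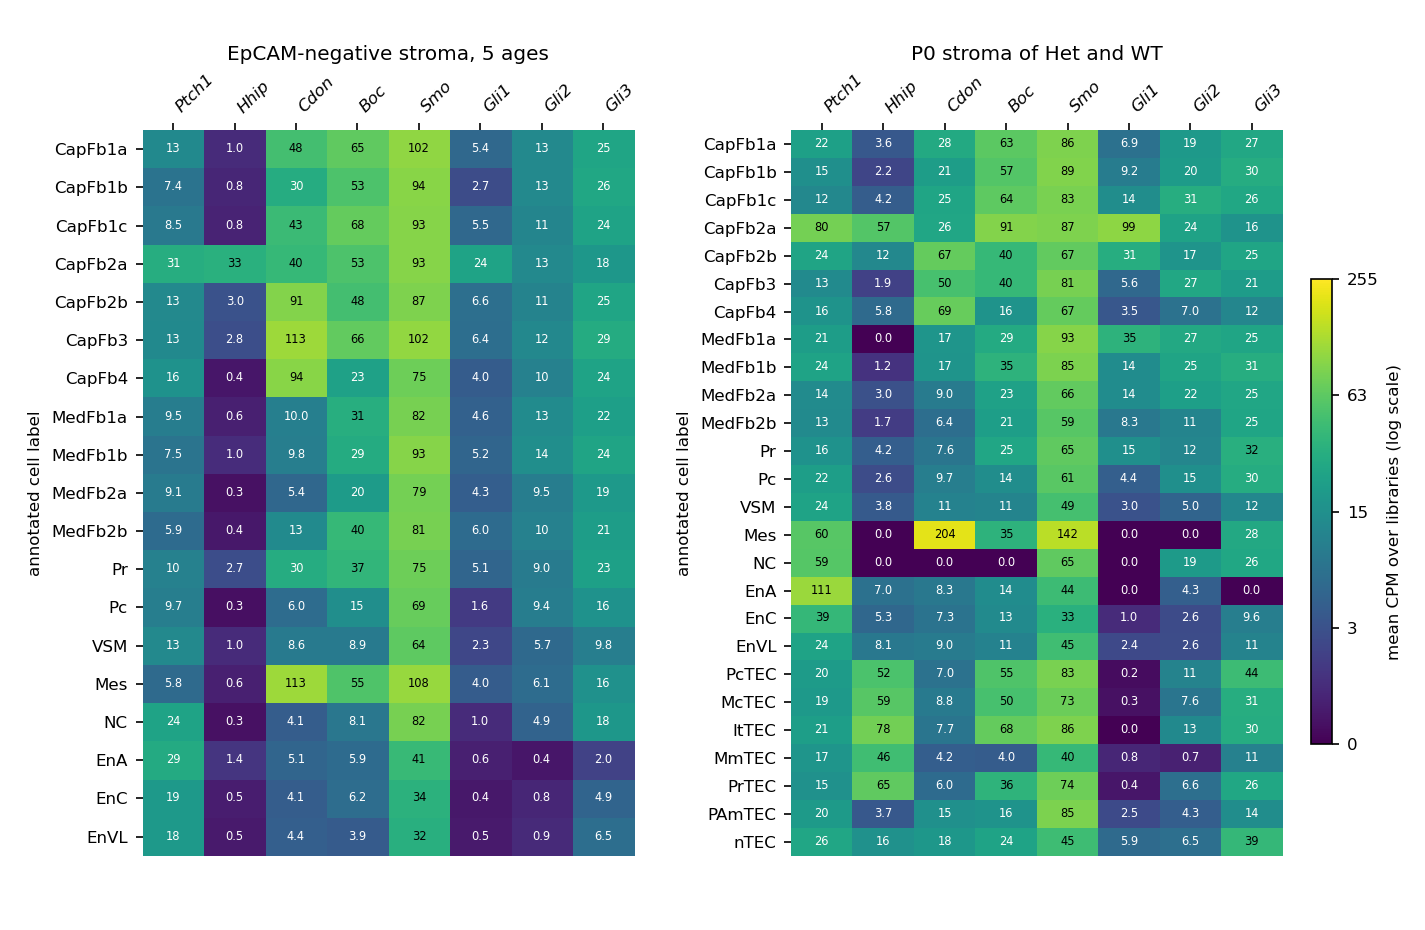
Mean CPM of the 8 genes (columns) in each annotated cell label (rows), over libraries with at least 5 cells of the label; the colour scale is logarithmic and each cell prints its mean. Left, EpCAM-negative stroma at 5 ages; right, P0 stroma of both genotypes with the TEC labels. CapFb2a carries the highest Gli1 and Hhip of the left panel, Hhip is also at 52 to 78 CPM in PcTEC, McTEC, ItTEC and PrTEC on the right, and Cdon is highest in CapFb3 and Mes on the left.

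Ptch1 was spread more widely than Gli1 or Hhip. Its mean was 30.6 ± 19.4 CPM in CapFb2a (SD, n = 8), 28.8 ± 10.9 CPM in arterial endothelium (EnA), 23.9 ± 14.8 CPM in neural crest-derived cells (NC), 18.8 ± 4.4 CPM in capillary endothelium (EnC) and 18.5 ± 5.3 CPM in EnVL, with the other subtypes between 5.8 and 15.9 CPM. These neighbours in the order lay within each other's spread. Gli1 was close to absent from the same endothelium: Ptch1-positive EnC had a mean Gli1 of 0.4 ± 0.5 CPM. In single cells, Gli1 was counted in 32.3% of CapFb2a cells (exact 95% interval 29.5 to 35.1%) and in 0.423% of EnC cells, at median depths of 14783 and 12069.5 UMIs. After each cell was thinned to 2000 UMIs the shares for Gli1 were 4.62% and 0.0429%. For Hhip the shares were 20.6% in CapFb2a and 0.211% in EnC, or 5.24% and 0.0429% after thinning. EnC is low in both RNAs in these same data, so CapFb2a lies above it by that choice. The part of background RNA in these shares was not tested. Intervals here cover counting error only.

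The co-receptors had another order. Cdon, an immunoglobulin-superfamily protein that binds Hedgehog ligands, was highest in mesothelium (Mes, 113.4 ± 66.1 CPM; SD, n = 7) and in CapFb3 (112.9 ± 111.2 CPM, n = 8), followed by CapFb4 (93.9 ± 90.1 CPM) and CapFb2b (90.8 ± 88.1 CPM). In the medullary subtype MedFb2a Cdon was at 5.4 CPM. These SDs are taken over all ages, and the levels at each age are given further on for CapFb3 and CapFb4. Boc, the paralogue of Cdon, was highest in CapFb1c (68.0 ± 22.6 CPM), CapFb3 (66.1 CPM) and CapFb1a (64.8 CPM), and lowest in EnVL (3.9 ± 1.8 CPM). Smo, the seven-pass membrane protein on which the pathway depends, was the most evenly spread gene, from 107.7 ± 7.0 CPM in Mes (n = 7) to 31.8 ± 18.3 CPM in EnVL. Gli2 ranged from 14.4 ± 2.3 CPM in MedFb1b to 0.4 CPM in EnA, and Gli3 from 29.3 ± 13.2 CPM in CapFb3 to 2.0 CPM in EnA. The 3 endothelial subtypes were thus at the bottom of the order for Smo, Gli2, Gli3 and Gli1 but not for Ptch1.

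The ligands were sparse outside endothelium, neural crest-derived cells and TEC. Dhh (desert hedgehog, known from Schwann cells and endothelium) had means of 110 ± 59 CPM in EnA, 80.99 ± 25.22 CPM in NC and 19.6 ± 11.8 CPM in EnVL (SD, n = 8), and these subtypes gave 541, 427 and 169 of its 1357 UMIs. Ihh (Indian hedgehog) gave 63 UMIs in all. Shh (sonic hedgehog) was not among the genes listed for the EpCAM-negative set and gave 9 UMIs in the P0 set that includes TEC. Among the binding proteins outside the member list, Gas1, a membrane-anchored co-receptor, reached 1253 CPM in CapFb3 and 1158 CPM in CapFb2b.

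The 3 target genes changed with age in CapFb2a. Gli1 in CapFb2a was 8.25 CPM at E12.5, 13.9 CPM at E13.5, 39.0 and 31.5 CPM at E16.5, 40.9 and 47.6 CPM at P0, and 0 and 12.1 CPM at W4. Hhip in CapFb2a was 1.65 CPM at E12.5, 3.61 CPM at E13.5, 39.8 and 50.7 CPM at E16.5, 86.9 and 69.4 CPM at P0, and 4.80 and 3.78 CPM at W4. Ptch1 was 49.1 CPM at E12.5, 13.9 CPM at E13.5, 28.9 and 33.8 CPM at E16.5, 56.71 and 44.97 CPM at P0, and 0 and 17.4 CPM at W4. For all 3 genes both P0 libraries were above both W4 libraries, and both P0 libraries were also above both E16.5 libraries. For Gli1 the nearest P0 and E16.5 libraries were at 40.9 and 39.0 CPM. With 2 libraries against 2 such an order can come by chance, and its share over all genes was not counted. The tests of these differences are given below. The libraries held 159, 129, 94, 120, 309, 194, 38 and 82 cells of this subtype in the order given, so that the first W4 library rests on 38 cells. CapFb2a exceeded every other fibroblast subtype of the same library in Hhip in 7 of 8 libraries, in Gli1 in 6 and in Ptch1 in 5. For each of the other 5 genes it did so in at most 1. CapFb2a was singled out for these 3 genes, so these counts describe that choice and are no support for it. The E12.5 library was the exception for Hhip: there CapFb2a, at 1.65 CPM, was below the highest of the others (4.28 CPM). The excess of CapFb2a in Hhip over the highest other fibroblast subtype was 7.53- to 13.2-fold in the E16.5 and P0 libraries. It was narrow at E13.5 (3.61 against 3.24 CPM) and W4 (4.80 against 3.16 CPM and 3.78 against 2.72 CPM).

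**Figure D2:**
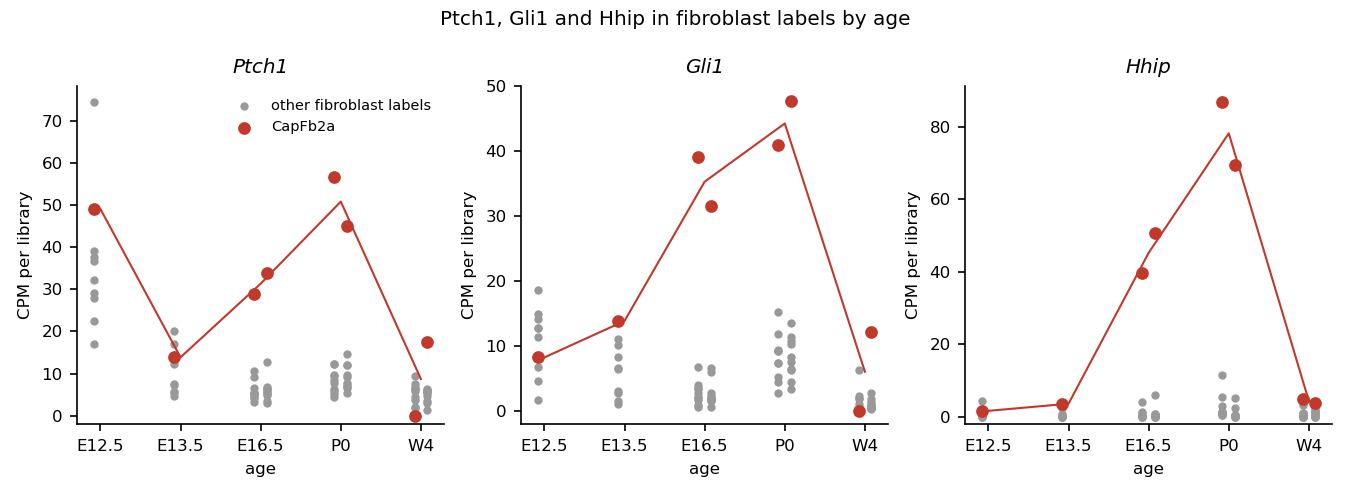
CPM per library (y axis) of Ptch1, Gli1 and Hhip by age (x axis) in CapFb2a (red; the line joins the age means) and in the other fibroblast subtypes (grey, 1 point per subtype and library). At E16.5 and P0 the CapFb2a points lie above the grey points of the same age for all 3 genes, and at W4 Hhip is at 4.80 and 3.78 CPM.

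Age was tested within each of the 17 subtypes with at least 20 cells in every P0 and W4 library. In CapFb2a the W4 minus P0 test (edgeR quasi-likelihood test on summed UMIs, p-values adjusted over all genes of the subtype by Benjamini-Hochberg, called under 0.05) gave a log2 change of −4.21 ± 0.32 (SE) for Hhip (adjusted p = 1.24e-05), −2.43 ± 0.48 for Gli1 (adjusted p = 0.00539) and −2.15 ± 0.49 for Ptch1 (adjusted p = 0.0119). Gli1 and Hhip fell in this subtype under every alternative tried, and the Ptch1 call was lost with DESeq2. In the same comparison 19.5% of all genes in CapFb2a were called and 9.34% were called and lower. From E16.5 to P0 Hhip rose in CapFb2a by 0.83 ± 0.19 (adjusted p = 0.0479; 2.49% of genes called), a call that 5 of 10 alternatives removed. The corresponding changes were 0.37 ± 0.33 for Gli1 (adjusted p = 0.62) and 0.74 ± 0.37 for Ptch1 (adjusted p = 0.35), and whether the 3 changes differed was not tested. The P0 libraries enter both comparisons, so these comparisons are not independent of each other. Over all 5 ages, with 1 library each at E12.5 and E13.5, the 3 genes were called in CapFb2a by the quasi-likelihood F test. Adjusted p-values were 9.37e-07 for Hhip, 0.00189 for Gli1 and 0.0143 for Ptch1. In that test 5200 of 11686 genes were called in CapFb2a, and the Ptch1 call was lost with DESeq2.

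Within CapFb2a the 3 target genes were counted in overlapping sets of cells. At P0 Gli1 was counted in 46.3% of cells (exact 95% interval 40.6 to 52.0%) in one library and 51.0% (43.8 to 58.3%) in the other. Hhip was counted in 41.1 and 27.8% and Ptch1 in 44.7 and 37.6% of the cells of the same libraries. Among the 503 CapFb2a cells at P0, Hhip was counted in 46.3% of Gli1-positive cells and in 26.4% of the rest, and Ptch1 in 53.7% and 31.03%. Cells with more UMIs score more often for any gene, and these pairs share that depth, so the values are given without a test. At W4 Gli1 was counted in 0 of 38 cells in one library, which allows a share of cells with a Gli1 UMI of up to 7.89% (3 counts of 38), and in 13.4% of 82 cells in the other.

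The age pattern of Gli1 was not confined to CapFb2a. W4 minus P0, Gli1 was lower in 9 of the 12 subtypes in which it was tested (13.9% of all gene tests were called and lower over the 17 subtypes fitted), with log2 changes of −4.95 to −2.43. In CapFb3 it fell by 4.95 ± 0.77 (adjusted p = 0.00371) and in MedFb2a by 3.59 ± 0.44 (adjusted p = 2.36e-05). In MedFb2a the values were 9.4 and 11.4 CPM at P0 and 1.0 and 0.7 CPM at W4. P0 minus E16.5, Gli1 was higher in 7 of 12 subtypes (6.63% of all gene tests called and higher), by 1.68 to 2.71, with the largest change in proliferating cells (Pr; 2.71 ± 0.29, adjusted p = 0.00122), where it went from 1.8 and 1.5 CPM at E16.5 to 10.7 and 12.4 CPM at P0. Without the first E16.5 library the calls in CapFb1a, CapFb4, MedFb1a and Pr were lost, and without the second these and that in MedFb1b. The CapFb4 call was lost under 6 of 9 alternatives, the replicate block and the crossed one among them. DESeq2 removed the calls in CapFb1b and MedFb1b, and the MedFb2a call held under every alternative. The W4 call for Gli1 held under every alternative in CapFb2a, CapFb2b, CapFb3, MedFb1b and MedFb2a. Mean Gli1 over all fibroblasts was 10.9 CPM at E12.5, 5.499 CPM at E13.5, 3.47 CPM at E16.5, 11.2 CPM at P0 and 1.43 CPM at W4. In endothelium mean Gli1 was at most 1.02 CPM at any age.

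Hhip passed the count filter and was tested in 6 subtypes. This filter can keep a gene through a single library, so a gene high at P0 alone is tested too. A fall to W4 is then favoured by the filter and is weak support. Hhip was lower at W4 than at P0 in CapFb2a, CapFb2b and CapFb3. The latter pair had 0 Hhip UMIs at W4, against 55 and 25 at P0, so that the fold is a bound: Hhip was at least 18.1-fold lower in CapFb2b and at least 6.07-fold lower in CapFb3, with 3 counts over the group as the floor. These bounds were 7.03 and 1.64 without the second W4 library, the lowest with 1 library left out, and leaving out the first P0 library also lowered both by over 1.5 times, as did leaving out the first W4 library in CapFb2b. The W4 call for Hhip in CapFb3 was lost under 2 of 7 alternatives, DESeq2 among them. From E16.5 to P0 Hhip rose in CapFb2a, CapFb2b (3.004 ± 0.62, adjusted p = 0.0172) and Pr (3.56 ± 0.57, adjusted p = 0.00619). The CapFb2b call was lost under 4 of 10 alternatives, DESeq2 among them, and each of these 3 calls without either of the E16.5 libraries. Ptch1 fell from P0 to W4 in 2 of 16 subtypes, where 13.9% of all gene tests were called and lower. These were CapFb2a and MedFb1b (−0.99 ± 0.32, adjusted p = 0.0187), the latter lost under 3 of 10 alternatives. From E16.5 to P0 Ptch1 was higher in 3 of 16 subtypes (CapFb1a, CapFb4 and Pr; 0.93 to 1.36, with 6.63% of all gene tests called and higher), calls lost under 6 of 9, 4 of 10 and 2 of 10 alternatives. In EnC its W4 minus P0 change was 0.40 ± 0.27 (adjusted p = 0.329). Mean Ptch1 in endothelium was 16.46, 17.5, 17.5, 19.9 and 24.4 CPM over the 5 ages in order, and in fibroblasts 38.5, 10.7, 6.31, 12.7 and 5.41 CPM. Ptch1 thus had its highest fibroblast mean in the single E12.5 library.

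Between P0 and W4 Cdon rose where it was called, while Gli1 fell where it was called. W4 minus P0, Cdon was higher in 9 of the 16 subtypes tested (13.7% of all gene tests called and higher), namely all 7 capsular subtypes, MedFb2b and Pr, with log2 changes of 1.19 to 2.08. In CapFb4 it was 60.01 and 59.17 CPM at P0 and 252.8 and 222.1 CPM at W4, a change of 2.08 ± 0.11 (SE; adjusted p = 3.23e-13). In CapFb3 Cdon was 35.5 CPM at E12.5, 60.7 CPM at E13.5, 29.2 and 36.3 CPM at E16.5, 102.5 and 60.7 CPM at P0, and 292.7 and 285.7 CPM at W4, a change of 1.93 ± 0.22 from P0 (adjusted p = 8.56e-04). The W4 libraries were the highest and did not overlap those of any earlier age. In MedFb2a Cdon was 6.8 and 7.1 CPM at P0 and 5.2 and 7.5 CPM at W4 (−0.15 ± 0.32, adjusted p = 0.748), and in MedFb1b 10.6 and 11.3 CPM against 9.23 and 12.04 CPM (−0.06 ± 0.25, adjusted p = 0.858). Whether the age change differed between capsular and medullary subtypes was not tested. Cdon was called in CapFb1a, CapFb1b, CapFb1c, CapFb2b, CapFb3 and CapFb4 under every alternative, and in CapFb2a not without the second W4 library. The MedFb2b call was lost under 3 of 9 alternatives, DESeq2 among them, and the Pr call under 1 of 9. P0 minus E16.5, Cdon was also higher, in 4 of 16 subtypes (CapFb1b, CapFb1c, CapFb2b and CapFb4; 0.61 to 1.25, with 6.63% of all gene tests called and higher), the direction in which Gli1 was called between these ages. The calls in CapFb1c and CapFb2b were lost without the first E16.5 library. Those in CapFb1b and CapFb1c were lost without the second and also with DESeq2, and that in CapFb4 under no alternative.

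**Figure D3:**
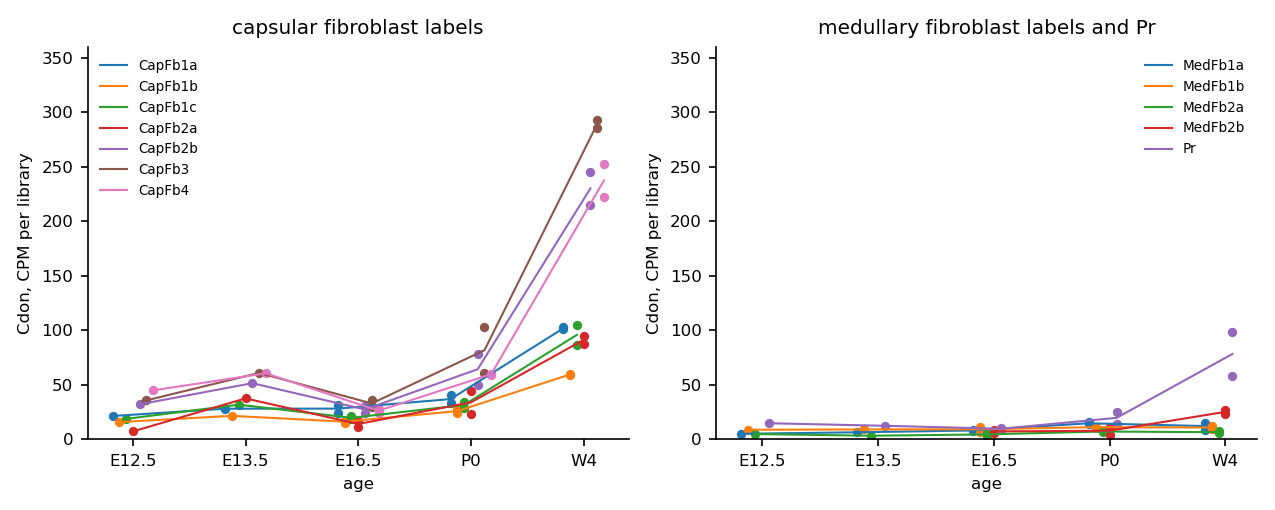
CPM of Cdon per library (y axis) by age (x axis), left in the 7 capsular subtypes and right in the medullary subtypes and proliferating cells (Pr); each point is a library with at least 5 cells of the subtype and lines join age means. In CapFb3 the W4 points stand at 292.7 and 285.7 CPM, and in MedFb2a at 5.2 and 7.5 CPM.

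Among the remaining genes, Smo was lower at W4 than at P0 in 8 of 17 subtypes, by 1.82 ± 0.34 in EnVL (adjusted p = 0.00449) and by 0.23 to 0.95 in the other 7 (13.9% of all gene tests called and lower). DESeq2 removed all of these calls but those in EnVL and EnC, which no alternative removed, and the MedFb2a call was lost under 9 of 10 alternatives. In EnVL Smo was 40.9 and 30.8 CPM at P0 and 13.1 and 7.2 CPM at W4. Boc was higher at W4 in CapFb1a (0.71 ± 0.16, adjusted p = 0.00357), CapFb1b and CapFb1c and lower in Pc (−1.16 ± 0.24, adjusted p = 0.00338) and MedFb1a. In Pc Boc was 13.6 and 11.8 CPM at P0 and 6.3 and 6.5 CPM at W4. Of the 5 Boc calls the one in CapFb1a was made with DESeq2 too, and the other 4 were not. Gli3 was higher at W4 in CapFb2a (0.96 ± 0.28, adjusted p = 0.0329), CapFb2b, CapFb3 and CapFb4 and lower in Pc and VSM (−1.07 ± 0.32, adjusted p = 0.044). The VSM call for Gli3 was lost under 6 of 10 alternatives, DESeq2 and the replicate block among them, and each of the other 5 under 3 or 4, always with DESeq2. Gli2 was called in 0 of 14 subtypes between P0 and W4 and in 0 of 14 between E16.5 and P0, and over the 5 ages in 1 of 9 subtypes (VSM). This Gli2 call was lost under 3 of 12 alternatives, DESeq2 and the replicate block among them. Over all members and subtypes 42 tests were called for W4 minus P0, or 37.2% of those made (27.6% of all gene tests), and 21 tests, or 18.6%, all of them higher at P0, for P0 minus E16.5 (12.6% of all gene tests). These counts were 19 and 7 with DESeq2. They also fell without the second W4 library and without either of the E16.5 libraries. Such fits leave 1 library at that age, and their spread comes from the other ages. Over the 5 ages 45 of 77 were called (29 of 49 with at least 50 cells per library, where fewer subtypes are tested), close to the 56.7% of all gene tests.

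**Figure D4:**
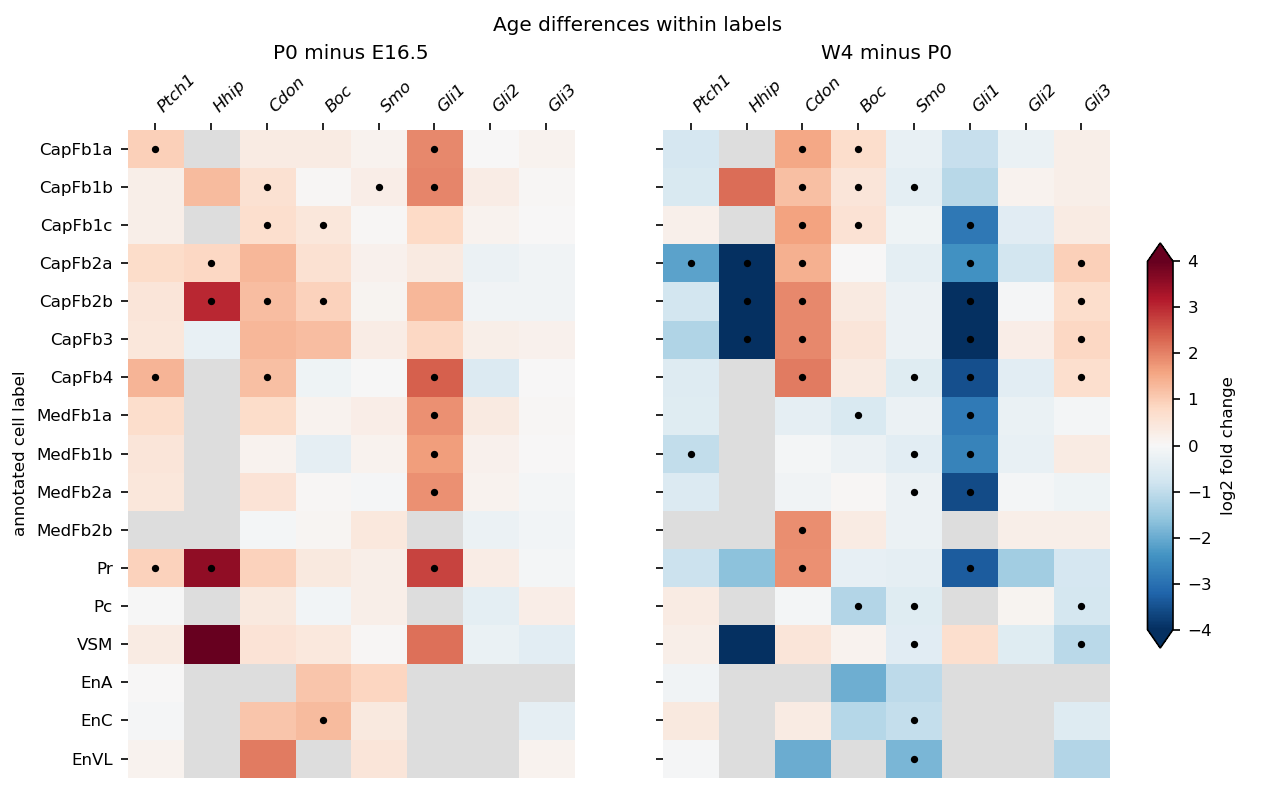
Log2 fold change (colour) of the 8 genes (columns) in each subtype (rows), left P0 minus E16.5 and right W4 minus P0; dots mark adjusted p under 0.05 and grey cells were not tested. Colours saturate at 4; the fitted values for Hhip in CapFb2b, CapFb3 and VSM at W4 rest on 0 UMIs and are bounds only. On the right Gli1 is blue and dotted in 9 subtypes and Cdon red and dotted in 9.

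The P0 set with TEC placed Hhip in a second compartment. Hhip averaged 77.7 ± 31.6 CPM in ItTEC (SD, n = 6 libraries), 65.4 ± 10.7 CPM in proliferating TEC (PrTEC), 59.3 ± 13.9 CPM in McTEC, 52.3 ± 8.3 CPM in PcTEC and 45.8 ± 20.3 CPM in MmTEC. It was 57.18 ± 49.03 CPM in CapFb2a (n = 5; 27 UMIs), 15.6 CPM in nTEC and 3.7 CPM in PAmTEC. PcTEC was epithelial by its markers, with mean Krt8 at 2497 CPM, Epcam at 442 CPM and the cortical gene Psmb11 at 213 CPM. Gli1 was at 0.2 ± 0.2 CPM in PcTEC and 0 CPM in ItTEC, against 99.2 ± 28.3 CPM in CapFb2a. PcTEC and ItTEC thus held Hhip with little or no Gli1 counted, and CapFb2a held both. TEC RNA was also counted in fibroblasts here: the 6 TEC markers summed to 293 CPM in CapFb2a (126 to 488 CPM over libraries) against 1224 to 4215 CPM in the TEC labels, and their part in the Hhip of CapFb2a in this set was not tested. In the other fibroblast labels of the set Hhip averaged between 0 and 12.3 CPM, with TEC marker sums of 236 to 486 CPM on average.

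Among the other genes in TEC, Gli3 had its highest mean of the set in PcTEC (43.9 ± 9.5 CPM; SD, n = 6). Boc was at 68.4 ± 22.2 CPM in ItTEC and 54.9 ± 8.7 CPM in PcTEC but 4.0 ± 4.2 CPM in MmTEC. Smo was at 85.9 CPM in ItTEC, 83.5 CPM in PcTEC and 39.6 CPM in MmTEC, and Gli2 at 12.8, 11 and 0.7 CPM in the same labels. Gli3 in MmTEC was at 11 CPM. Boc, Smo, Gli2 and Gli3 thus had lower means in MmTEC than in PcTEC, where Hhip had means of 45.8 and 52.3 CPM. Cdon was low in TEC (7.0 CPM in PcTEC) and highest in Mes (204 CPM, n = 3) and CapFb4 (69.5 ± 24.3 CPM). The 3 libraries behind the Mes mean held 5, 8 and 7 Mes cells, so that it rests on few cells. Ptch1 was highest in EnA (111 ± 67 CPM, n = 6) and CapFb2a (79.7 ± 59.1 CPM, n = 5). The ligand Dhh was at 67.5 CPM in EnA, 39.9 CPM in NC and 31.8 ± 20.4 CPM in MmTEC. These differences between annotated labels are descriptions, without a test.

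The genotype comparison asked whether loss of one copy each of Tbx1 and Crkl changed these genes within a label. The alleles could not be checked from these counts: Tbx1 gave 0, 0 and 8 UMIs in the Tbx1+/- Crkl+/- libraries and 13, 6 and 19 in the wild-type ones, and Crkl was at 24.1, 23.6 and 26.9 CPM against 23.0, 25.1 and 18.4 CPM. None of 54 tests of the members in 16 labels was called by edgeR's quasi-likelihood test (0.0481% of all gene tests called) and none by DESeq2. The smallest adjusted p was 0.428, and 2 tests had an unadjusted p under 0.05 (Smo in Pr, 0.88 ± 0.32, and Boc in CapFb1c, 0.85 ± 0.36). Hhip in PcTEC was 53.6, 45.2 and 61.6 CPM in the heterozygous and 54.2, 59.3 and 39.9 CPM in the wild-type libraries, which overlapped. Over the 54 tests the log2 differences lay between −0.71 and 0.95. CapFb2a had too few cells to be tested, and Gli1 passed the count filter in none of the labels, so no statement on genotype can be made for either.

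In the sorted bulk populations Hhip was again a gene of TEC. Mean Hhip was 75.5 ± 20.6 CPM in mTEChi, 72.2 ± 36.2 CPM in mTEClo, 69.5 ± 9.4 CPM in mTEC at P0, 62.8 ± 16.1 CPM in cTEC at P0, 61.7 ± 31.7 CPM in mTEC at 4 weeks and 47.8 ± 11.8 CPM in cTEC at 4 weeks (SD, n = 6 each). These 6 groups overlapped each other. The lowest of them, with libraries from 35.6 to 63.8 CPM, did not overlap the next group, Ly51gp38neg at P0 (0 to 29.7 CPM, mean 6.05 CPM). The lowest mTEC library at 4 weeks was at 4.15 CPM. CD31 cells held no Hhip count at either age. In edgeR's quasi-likelihood test over all 14 groups, the mesenchyme (mean of the Ly51gp38neg, gp38CD26pos and gp38CD26neg groups) minus TEC (mean of cTEC and mTEC) difference for Hhip was −4.44 ± 0.83 at P0 (SE; adjusted p = 1.16e-05) and was called in the same direction at 4 weeks (adjusted p = 2.68e-09). No fold is given at 4 weeks, since the gp38CD26pos libraries were all at 0 and 5 of the 6 gp38CD26neg libraries were too, and the fitted value then depends on the fit. In bulk samples fewer cells of a type and less RNA per cell cannot be told apart.

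In the P0 mesenchyme Hhip was counted in few libraries. In gp38CD26neg it was 3.08, 0, 0, 0, 0 and 22.1 CPM at P0, and at 4 weeks a single library held any, at 0.327 CPM. The highest Hhip values of P0 mesenchyme came from replicate 6 of each group: 29.7 CPM in Ly51gp38neg, 22.1 CPM in gp38CD26neg and 4.24 CPM in gp38CD26pos. The 6 TEC markers in these libraries summed to 0.531, 5.95 and 10.2 CPM, against 5322 to 8307 CPM in cTEC at P0. The next Hhip values were 6.15 CPM in Ly51gp38neg (replicate 4) and 3.08 CPM in gp38CD26neg (replicate 1). These libraries had the highest TEC marker sums of their groups, 60.1 and 90.7 CPM. The part of TEC RNA in the Hhip of P0 mesenchyme was not tested. The Hhip fall in gp38CD26neg from P0 to 4 weeks (adjusted p = 0.0123; no fold is given, with 4 counts in all at 4 weeks) was the one age call among 48 tests of the members in bulk, where 9.86% of all gene tests were called over the 6 populations and 4.82% of genes were called and lower in this one. The titles of the bulk libraries carry the prefix TXCK or DFCK, 3 of each per group, whose meaning is not stated, and the call was lost with the libraries of either prefix alone.

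Boc was the most abundant of the 8 genes per length of its exons in bulk, with a highest group mean of 35.5 CPM per kilobase in gp38CD26pos at P0, followed by Smo with 13.1 CPM per kilobase in gp38CD26neg at P0 and Hhip with 8.32 CPM per kilobase in mTEChi. On the CPM scale the mean Boc level was 158.1 ± 31.9 CPM in gp38CD26pos and 148.6 ± 35.2 CPM in gp38CD26neg at P0, 127.1 ± 63.6 CPM in mTEClo, 120 ± 36 CPM in cTEC at 4 weeks and 120 ± 21 CPM in cTEC at P0, groups that overlapped. In mTEClo Boc lay between 57.1 and 221 CPM with a median of 112.3 CPM, and in mTEChi between 0 and 9.32 CPM with a median of 1.57 CPM, without overlap. The mTEChi minus mTEClo difference of −5.08 ± 1.02 (adjusted p = 2.13e-04) was the one member call of that comparison (19% of all genes called), lost with the TXCK libraries alone. cTEC exceeded mTEC at P0 in Boc (2.19, adjusted p = 0.0498) and in Gli2 (3.85, adjusted p = 0.0478), 2 of 8 members where 32.1% of all genes were called; the Boc call was lost under 6 and the Gli2 call under 4 of 9 alternatives. At 4 weeks 0 of 8 were called (32.2%).

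**Figure D5:**
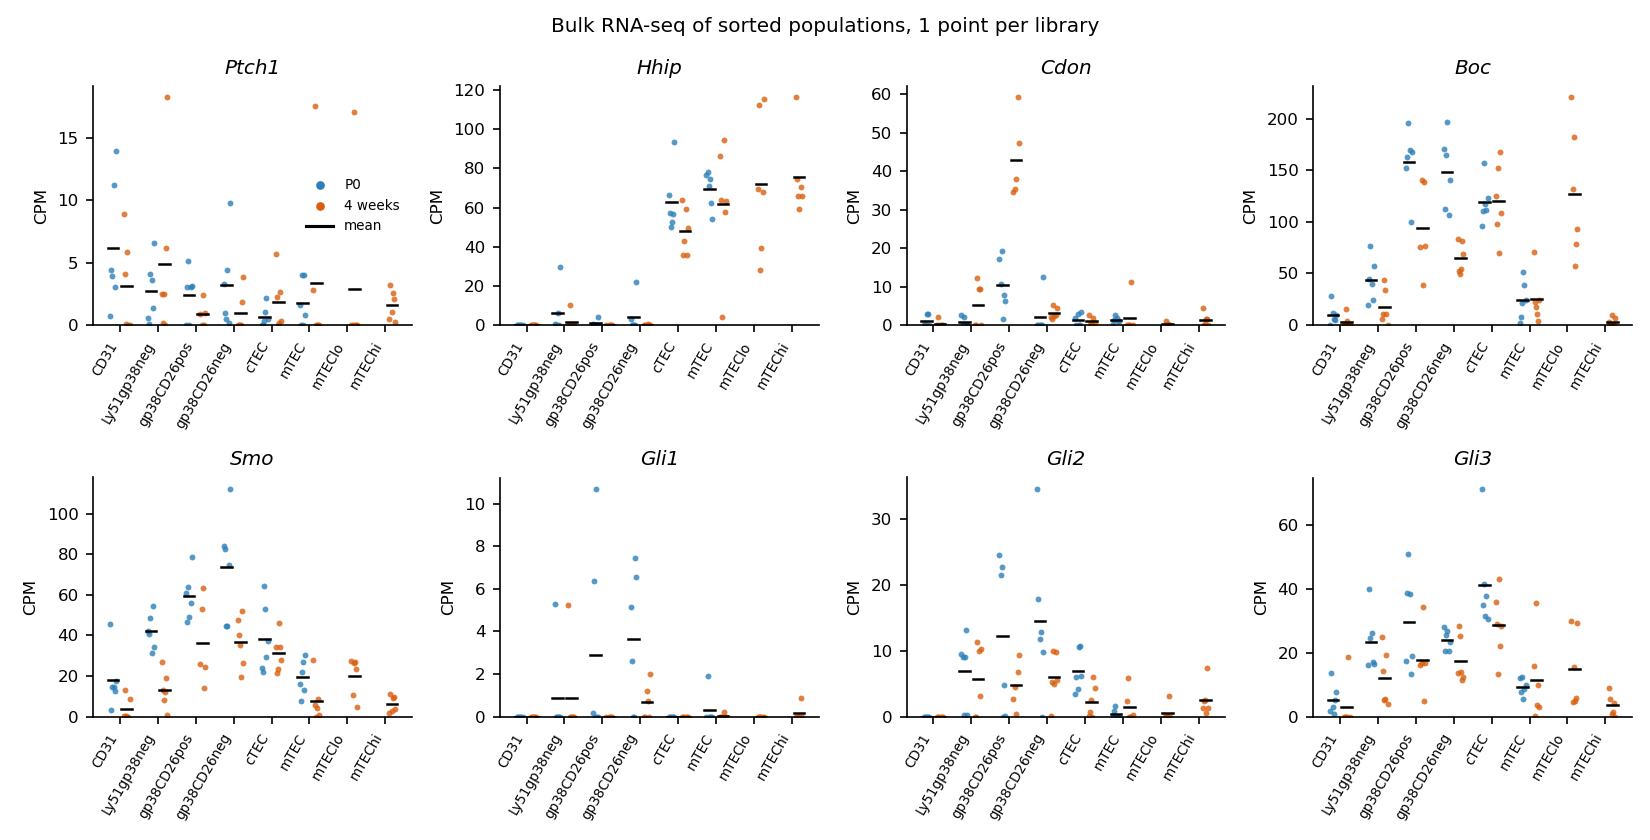
CPM of the 8 genes (1 panel each, y axis) in the sorted populations (x axis), 1 point per library, P0 in blue and 4 weeks in orange, with the group mean as a black bar. Hhip is concentrated in the TEC groups, Boc is at 57.1 to 221 CPM in mTEClo and at most 9.32 CPM in mTEChi, and the 5 gp38CD26pos libraries at 4 weeks hold Cdon at 34.6 to 59.2 CPM.

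Cdon in gp38CD26pos was 17.1, 10.6, 19.3, 1.68, 7.81 and 6.36 CPM at P0 and 34.6, 35.3, 38.0, 59.2 and 47.3 CPM at 4 weeks. The ages did not overlap, but the difference, 2.21 ± 1.75 on the log2 scale (adjusted p = 0.544), was not called, with a spread shared over all groups. In gp38CD26neg Cdon was at most 5.22 CPM at 4 weeks, and the gp38CD26neg minus gp38CD26pos difference at that age of −3.86 ± 1.86 had an unadjusted p of 0.0415 and an adjusted p of 0.243. The summed level of mesothelial markers in gp38CD26pos had a median of 57.9 CPM at P0 (0 to 386 CPM). At 4 weeks it was 4193 CPM there (504 to 5634 CPM) and 2.54 CPM in gp38CD26neg. The part of mesothelial RNA in these Cdon values was not tested. None of the 16 tests of the members between these fibroblast populations was called by edgeR (4.2% of all genes at P0, 6.03% at 4 weeks), 2 had an unadjusted p under 0.05, and DESeq2 called 1. Mesenchyme exceeded TEC in Cdon at 4 weeks (2.87 ± 1.199, adjusted p = 0.0464), a call lost under 3 of 9 alternatives.

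The Gli genes and Smo were low in bulk endothelium. Gli1 was low throughout, at most 3.63 CPM on average (gp38CD26neg at P0: 5.16, 2.62, 0, 0, 7.43 and 6.56 CPM), and was 0 in every library of CD31, cTEC and mTEClo. It was also 0 in every gp38CD26pos library at 4 weeks, against a mean of 2.87 CPM at P0. This is at least 64.5-fold lower, or 29.4-fold without replicate 4 of P0, but edgeR did not call it (adjusted p = 0.0616). Mesenchyme exceeded TEC at P0 in Gli1 (adjusted p = 0.00699; no fold is given, since cTEC and 5 of the 6 mTEC libraries were at 0), Gli2 (2.74 ± 0.99, adjusted p = 0.0216) and Smo (1.198 ± 0.496, adjusted p = 0.0471). The Gli1 and Gli2 calls were lost with the libraries of either title prefix alone, Gli1 also with DESeq2, and the Smo call was lost under 5 of 9 alternatives. With Hhip, 4 of 8 members were called at P0 and 2 of 8 at 4 weeks, where 38.9% and 41.8% of all genes were called. CD31 cells were lower than mesenchyme in 6 of 8 members at P0 and in 5 of 8 at 4 weeks (12.7% and 13.3% of all genes called and lower); of these 11 calls 4 were made with the TXCK libraries alone and 5 with the DFCK libraries alone. Gli2 was 0 in all CD31 libraries and therefore at least 262-fold lower at P0 and at least 138.7-fold lower at 4 weeks, and at P0 Gli1 was at least 57.6-fold and Hhip at least 86.3-fold lower, the Hhip bound being 49.4 without replicate 6 of Ly51gp38neg. The mesenchyme libraries enter both of these comparisons. Gli3 was highest in cTEC at P0, where its libraries ran from 30.5 to 71.1 CPM with a mean of 41.2 CPM, and was 5.31 CPM in CD31 cells at P0. Smo was highest in gp38CD26neg at P0 (73.85 ± 25.99 CPM) and lowest in CD31 at 4 weeks (3.62 CPM). Ptch1 was at 0.682 to 6.202 CPM in all 14 groups, each overlapping the next in the order. It was the one gene of the list with no bulk call in any comparison, although with the TXCK libraries alone mesenchyme exceeded TEC at 4 weeks (4.86 ± 1.82, adjusted p = 0.0431), where all libraries together gave −0.45.

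Calls between mural cells and fibroblasts came at about the rate of all genes. Ly51gp38neg minus the mean of both gp38 populations gave 0 calls of 8 at P0 (13.2% of all genes called) and 2 at 4 weeks (21.7%): Boc was lower (−2.29 ± 0.84, adjusted p = 0.0383) and Hhip higher (adjusted p = 0.00264). The Hhip call rests on 1 of the 6 libraries at 10.3 CPM, the other 5 being at 0, and that library also had the highest TEC marker sum of its group (452 CPM; range 44.9 to 452 CPM). Replicate 3, at 0 Hhip, had a TEC marker sum of 424 CPM; the part of TEC RNA in it was not tested. That library carries the prefix DFCK; with the TXCK libraries alone the fitted difference was −1.84 and not called. The Hhip call was also lost with the DFCK libraries alone and with the title number as a replicate block within each age, and the Boc call was lost under 4 of 9 alternatives. The age changes of the members did not differ by test between gp38CD26neg and gp38CD26pos or between cTEC and mTEC: edgeR called 0 of 16 (3.39% and 2.87% of all genes), with 0 at an unadjusted p under 0.05, and DESeq2 called 1.

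The ligand Dhh was 105 to 176 CPM in mTEChi (median 151.1 CPM) and 0 to 23.5 CPM in mTEClo (median 7.20 CPM), without overlap. In mTEC its mean was 90.6 CPM at P0 and 118.6 CPM at 4 weeks, and in CD31 cells 30.3 and 37.7 CPM. Dhh had no count in cTEC at P0, at least 1927-fold lower than in mTEC, and a mean of 7.41 CPM there at 4 weeks. Rhebl1 overlaps Dhh by 546 bases on the same strand, so that some reads may have been shared or dropped. Shh was counted in mTEC at P0 and 4 weeks and in mTEChi, with a mean of at most 1.81 CPM. Ihh had its highest median, 5.90 CPM, in mTEChi.

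Among the other 35 listed pathway genes, the called ones were a minority in each bulk comparison and went in both directions in most. Between mesenchyme and TEC, 6 were higher and 4 lower in mesenchyme at P0 and 11 higher and 5 lower at 4 weeks, where 38.9% and 41.8% of all genes were called. By fitted change the leading ones at P0 were the endocytic receptor Lrp2, lower in mesenchyme, and the forkhead genes Foxl1 and Foxf2, known Hedgehog-responsive genes of mesenchyme, both higher, and at 4 weeks the ciliary receptor Gpr161, Scube1 and Foxf2, all higher. No fold is given for these, since each had at least 1 of the groups averaged at 0 counts. Between cTEC and mTEC 5 were higher and 9 lower at P0 and 7 higher and 10 lower at 4 weeks (32.1% and 32.2% of all genes called), and between mTEChi and mTEClo 6 were higher and 7 lower (19%). Between the fibroblast populations 3 were higher in gp38CD26neg at P0, among them the cyclin gene Ccnd2 (1.57), and 3 higher and 2 lower at 4 weeks, among them Ccnd1 (2.01), against 4.2% and 6.03% of all genes called. With age, where 9.86% of all gene tests were called, Ccnd1 rose in gp38CD26neg (3.42) and gp38CD26pos (1.88), and Bcl2 fell in both (−1.86 and −2.64). The age change of Ccnd2 differed between both populations (−2.33, adjusted p = 4.90e-09), the one listed gene for which it did (3.39% of all genes called).

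Over the 14 bulk group means, and among 13334 genes with a mean of at least 10 CPM in a group, the genes most like Hhip by Pearson's r of log2(CPM + 1) were Rnf128, Ap1m2 and Krt17 (0.97 each). For Cdon they were Angptl1 (0.95), Pi16 and Lgr5 (0.92 each), and for Boc Gli3 (0.93), Ift74 (0.92) and Ltbp3 (0.91). Gli3 was most like Slc1a4, Rbms3 and Ift74 (0.94 each), Smo like Morf4l2 (0.96), Tubb6 and Slc35b2 (0.95 each), and Gli2 like Rnd3, Pdzrn3 (0.91 each) and Selenbp1 (0.90). Gli1 was most like Mc2r (0.96), Pilra (0.94) and Mab21l1 (0.91), and Ptch1 like Sgf29 (0.85), Kcna5 (0.83) and Ttll7 (0.82), the lowest values of the list. These are descriptions over group means, with no p-value, and Gli1 rests on values near 0 in most groups.

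On GRCm38 the genes lie on 7 chromosomes: Ptch1 at 13:63508328-63573598, Gli3 at 13:15463235-15730026, Gli1 at 10:127329882-127341974, Gli2 at 1:118834132-119053619, Hhip at 8:79965851-80058006, Smo at 6:29735503-29761365, Cdon at 9:35421128-35507652 and Boc at 16:44485049-44558897. Gli1 overlaps exons of Arhgap9 and Gm47200, Gli3 of Gm6556 and Hhip of Gm27820, all on the opposite strand, the first by 327 and the second by 188 bases. The strand setting of the counts is not stated in the sources used here, so that reads of these pairs cannot be told apart in the bulk values.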

How the data were processed

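Stroma of the mouse thymus was measured by droplet single-cell RNA-seq (8 libraries over 5 ages, 6 libraries by genotype) and by bulk RNA-seq of sorted cells (84 libraries). Groups were taken from the GEO labels. Both single-cell tables hold UMI counts per gene and cell that the authors deposited after Cell Ranger 3.1.0. Their stated filters were over 1000 genes and under 5% mitochondrial UMIs per cell and removal of called doublets and contaminant clusters; the fewest genes in a cell were 999 to 1021 over the libraries by age and 876 to 901 over those by genotype. Cell labels are the authors' own. The bulk table holds read counts per gene that the authors deposited after alignment with STAR 2.5.3a and counting with HTSeq. The submitters' processing notes name mm10 and GRCh38, with no role given. Filtering and labelling before deposit mean that rare or shallow cells are missing from every share given. Rows that name no gene held 7.81 to 29.4% of the counts of a bulk library and were left out of library sizes.

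CPM are counts per 1000000 gene counts, computed here. UMIs were summed per label and library, with at least 5 cells for a level and 20 for a test. All tests used edgeR 4.0.16 (quasi-likelihood, filterByExpr, TMM; R 4.3.3) over all genes, with Benjamini-Hochberg adjustment and a threshold of 0.05; bulk libraries under 1000000 gene counts were left out. The alternatives were DESeq2 1.42.0, DESeq2 size factors, no count filter, all bulk libraries, title prefix as a term or each prefix alone, the compared groups alone, at least 50 cells, leaving out libraries and a replicate block (in bulk by title number, chosen after seeing the data, as were crossed replicate numbers). Intervals are exact (95%) and floors are 3 counts; for cell shares, cells were thinned to 2000 UMIs. Promoters are RefSeq's; gene positions are those of GENCODE on GRCm38.

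The members and lists were chosen with earlier results of these data known. Genes named are the members, the ligands, for each bulk comparison up to 3 other listed genes past the threshold with the largest changes, the 3 genes most like each member, and genes that check the labels; Gas1 in single cells was named after its values were seen.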

Additional observations from a re-analysis of the deposited data

Results flagged for a closer look

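Single libraries stood far from the other libraries of their group in 28 sets of bulk libraries, 27.7% of those examined. Chance gives about 1 in 20 for normally distributed values without ties. Many of these groups hold low CPM with an SD above the mean, so their share cannot be set against that rate. In 12 of the 28 every other library of the group was at 0, so that any count sets a library apart and that rate does not hold. In the values that follow, each is the CPM of the library that stood apart.

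Hhip stood apart at 10.3 CPM in Ly51gp38neg at 4 weeks (replicate 2), 29.7 CPM in Ly51gp38neg at P0 (replicate 6), 22.1 CPM in gp38CD26neg at P0 (replicate 6), 4.24 CPM in gp38CD26pos at P0 (replicate 6) and 0.327 CPM in gp38CD26neg at 4 weeks (replicate 4). In TEC it did so at 93.7 CPM in cTEC at P0 (replicate 6) and 116.2 CPM in mTEChi (replicate 1). Ptch1 stood apart at 18.3 CPM in Ly51gp38neg at 4 weeks (replicate 6), 17.6 CPM in mTEC at 4 weeks (replicate 2) and 17.1 CPM in mTEClo (replicate 3).

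Gli1 did so at 5.25 CPM in Ly51gp38neg at 4 weeks and 5.29 CPM at P0 (replicate 1 in both), 0.225 CPM in mTEC at 4 weeks (replicate 4), 1.91 CPM in mTEC at P0 (replicate 2) and 0.876 CPM in mTEChi (replicate 5), the other libraries of each of these groups being at 0. Gli2 did so at 7.41 CPM in mTEChi and 3.07 CPM in mTEClo (replicate 5 in both), and Gli3 at 18.6 CPM in CD31 at 4 weeks (replicate 5) and 71.1 CPM in cTEC at P0 (replicate 1).

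Smo stood apart at 45.6 CPM in CD31 at P0 and 27.8 CPM in mTEC at 4 weeks (replicate 1 in both). Cdon did so at 2.08 CPM in CD31 at 4 weeks (replicate 2), 12.6 CPM in gp38CD26neg at P0 (replicate 6), 11.3 CPM in mTEC at 4 weeks (replicate 5), 4.49 CPM in mTEChi (replicate 1) and 1.13 CPM in mTEClo (replicate 2). Boc did so at 15.5 CPM in CD31 at 4 weeks (replicate 3) and 70.9 CPM in mTEC at 4 weeks (replicate 1).

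The age change of Dhh differed between cTEC and mTEC by 8.81 on the log2 scale (edgeR interaction test, adjusted p = 0.0175). Dhh was at 0 in all cTEC libraries at P0, so that this fitted value is no bound on the difference.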

How the results depend on the processing

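Of the comparisons of single gene values with their alternatives, 1516 kept direction and side of the threshold, 89 passed it newly, 236 fell short of it and 2 changed sign, both with the TXCK libraries alone: Ptch1 in mesenchyme minus TEC at 4 weeks (4.86) and Hhip in Ly51gp38neg minus gp38 fibroblasts at 4 weeks (−1.84). Fewer libraries enter those fits; otherwise the cause was not tested.

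Counts of members called moved as follows. With DESeq2 they were 3 for age in bulk (1 by edgeR), 1 between the gp38 populations (0), 1 for the difference of age changes (0), 19 for W4 minus P0 (42) and 7 for P0 minus E16.5 (21). With the compared groups alone they were 3 for age, 1 between the gp38 populations, 4 for Ly51gp38neg (2) and 4 for cTEC minus mTEC (2). With the TXCK libraries alone they were 0 for age, Ly51gp38neg, cTEC minus mTEC and mTEChi minus mTEClo (1), and 4 for CD31 (11); with the DFCK libraries alone 0 for Ly51gp38neg and cTEC minus mTEC and 5 for CD31. Without a filter they were 1 for Ly51gp38neg and 0 for cTEC minus mTEC, with all 84 libraries 1 for each, and with DESeq2 size factors 0 for cTEC minus mTEC. With at least 50 cells the test over 5 ages gave 29 of 49 (45 of 77), with fewer subtypes tested. Leaving out 1 library gave 24 to 42 for W4 minus P0 (24 without the second W4 library), 5 to 24 for P0 minus E16.5 (5 without either E16.5 library) and 35 to 49 over 5 ages. Mesenchyme minus TEC stayed between 4 and 7, and the genotype comparison gave 0 throughout.

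The replicate numbers did not pair the libraries: deviations of same-numbered libraries correlated at −0.148, 0.0736 and −0.306 between E16.5, P0 and W4 and at 0.27, −0.0503 and −0.643 between genotypes. Differently numbered libraries of the 2 genotypes correlated at −0.692 to 0.752, the highest being heterozygous library 2 with wild-type library 3. For genotype no pairing other than by number was fitted, so a link between other libraries was not tested. With the replicate block the counts were 44 over 5 ages, 42 for W4 minus P0, 22 for P0 minus E16.5 and 0 for genotype. With crossed numbers, chosen after seeing the data, they were 45, 41 and 22. In bulk the numbers are in accession order. The library numbers in the titles run at the same spacing in every population of an age, and no source used here says whether they mark shared animals. Deviations of libraries at the same place correlated at −0.0682 to 0.0789 between populations, under 0.1 in every pair. With that place as a replicate block within each age, chosen after seeing the data, the count for Ly51gp38neg was 1 and the Hhip call there was lost, and the counts of the other 6 comparisons within an age or of age changes stayed within 1.5 times.

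Low counts limit Gli1 in bulk and Hhip outside TEC and CapFb2a, and 1 library at E12.5 and at E13.5 leaves those ages without a replicate.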
